A study of Mus musculus with 2 samples.

Results

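The cells described here are neurosphere cells of the mouse glioma line GL261 with the largest share of UMIs on S100a6, S100a4, Lgals1 and Cryab, genes that adherent GL261 cells express strongly. They were chosen by that share, called the score below: 342 of the 4276 kept neurosphere cells, the top 8%, and they are called high-score cells. The low-score cells are the 2138 kept cells in the bottom 50%, and the 1796 middle cells are the 42% between. Since the cells were selected on these 4 genes, the values of the 4 genes are a description of the choice and support nothing.

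GL261 is a line labelled astrocytoma, from the mouse strain C57BL/6. Adherent cells grew in DMEM that held 10% FBS and 1% Penicillin-Streptomycin, and neurospheres formed over 12 days after EGF at 20 ng/ml, FGF at 20 ng/ml and B-27 at 1:50 had been added to that medium. Adherent cells were detached with trypsin, while the neurospheres were broken up by trituration, after trypsin by the labels, and both were run with 10x Genomics 3' chemistry as 1 library per culture. The culture, its dissociation and its library therefore cannot be told apart, no test was possible, and the exact 95% intervals in the text cover counting error only.

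The neurosphere library held 82832873 UMIs in 4951 called cells, and the median kept cell had 13198.5 UMIs on the genes left after mitochondrial and ribosomal genes were removed. The adherent library held 68531063 UMIs in 5764 called cells, and the median of its 5051 kept cells was 8260 UMIs. The libraries shared 12 barcodes among called cells, of which 11 were kept neurosphere cells and 1 was a high-score cell. That cell had 0.986% of its UMIs on adherent-high genes and 10.4% on neurosphere-high genes, lists that are defined further on, so it did not look like an adherent cell.

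S100a6 and S100a4 encode small calcium-binding proteins of the S100 family, which change shape when calcium binds and then attach to partners such as annexins and parts of the cytoskeleton. Lgals1 encodes galectin-1, a protein that binds galactose-containing sugars on the cell surface and in the matrix, and Cryab encodes alphaB-crystallin, a small heat shock protein that keeps damaged proteins and intermediate filaments from clumping. Galectin and S100 genes are among those that mark mesenchymal states of glioma cells. Glioma cells grown as spheres with EGF and FGF often turn on genes of neural stem and oligodendrocyte progenitor cells.

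The score of the high-score cells ran from 0.892% to 6.54% with a median of 1.23%. Over all kept neurosphere cells the median was 0.189%, the 25th percentile 0.0864% and the 75th percentile 0.411%, and 54 cells scored 0. No gap set the high-score cells apart: the last cell inside had a score of 0.892% from 18833 UMIs and the first cell outside had 0.889% from 28906 UMIs. The median of the 10 cells just inside was 0.897% and that of the 10 just outside was 0.886%. Within 10% of the threshold lay 136 cells, 64 of them inside and 72 outside. They are the upper end of a continuous range and not a separate cluster of scores.

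**Figure D1:**
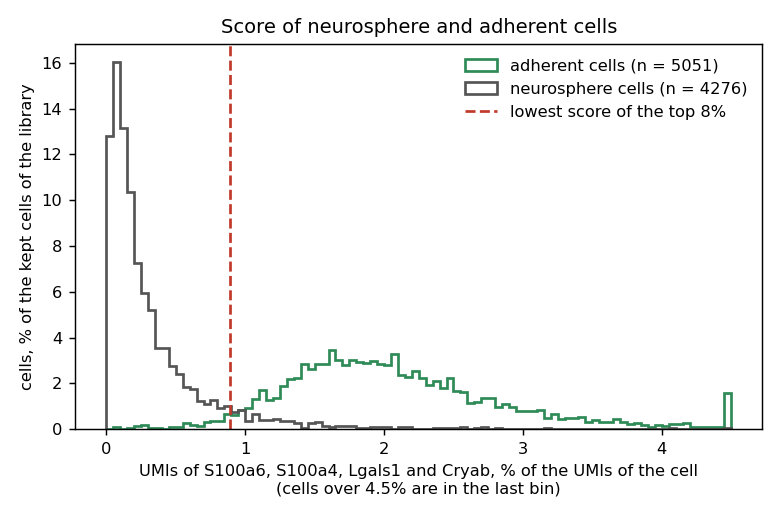
Score per kept cell (x axis, percent of UMIs on S100a6, S100a4, Lgals1 and Cryab) against the percent of kept neurosphere or adherent cells in each bin (y axis). The dashed line marks the last high-score cell at 0.892%, and 97.0% of the adherent cells lie at or above it.

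Adherent cells had a median score of 1.95%, and 4897 of the 5051 (97.0%) were at or above the score of the last high-score cell. Of the high-score cells, 259 (75.7%) reached the 5th percentile of adherent cells, 1.02%, and 57 (16.7%) reached the adherent median. On the score alone, the high-score cells thus overlapped the lower part of the adherent range, which the rule made likely.

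High-score cells were deeper than the cells they are compared with. Their median was 17410.5 UMIs and 4686.5 genes, against 15469 UMIs and 4619 genes in middle cells and 10881 UMIs and 4000.5 genes in low-score cells. The score and the UMIs per cell, both on a log scale, had a Pearson r of 0.375 over the kept neurosphere cells, which share a library. Their median mitochondrial share was 3.65%, against 4.18% in low-score cells, and their median ribosomal share was 18.1%, against 15.0%. Of the high-score cells, 29 (8.48%) lay above the library's 95th percentile of UMIs, against 49 (2.29%) of the low-score cells. No doublet caller was run, and the comparisons were rerun without the deepest cells, with cells thinned before scoring and with both groups limited to 1 range of UMIs.

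S100a6 (ENSMUSG00000001025, chr3:90612882-90624181 on the plus strand of GRCm38) had 4419 CPM (UMIs of the gene in the cells of a group, scaled to a sum of 1000000 UMIs) in high-score cells. It had 572 CPM in middle cells, 79.4 CPM in low-score cells and 7353 CPM in adherent cells. All 342 high-score cells held at least 1 UMI of it, and its level per cell ran from 0.541 to 346.6 UMIs per 10000, with a median of 33.7. S100a6 therefore differed among the high-score cells far more than Lgals1 did.

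Lgals1 (ENSMUSG00000068220, chr15:78926725-78930465, plus strand) had 8267 CPM in high-score cells, 3322 CPM in middle cells, 778 CPM in low-score cells and 10663 CPM in adherent cells. It was found in 341 of the 342 high-score cells, with a median of 80.0 UMIs per 10000 and a highest value of 176.6. It supplied 56.2% of the score's UMIs in high-score cells, against 50.0% in adherent cells. Lgals1 was the common part of the score, present in nearly every neurosphere cell at some level.

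Cryab (ENSMUSG00000032060, chr9:50751325-50756636, plus strand) had 2007 CPM in high-score cells, 282 CPM in middle cells, 119 CPM in low-score cells and 2976 CPM in adherent cells. Its median was only 6.31 UMIs per 10000 in high-score cells while the highest cell reached 617.8, and the 10 cells with the most Cryab held 46.1% of its UMIs. A few cells thus carried much of the pooled Cryab level.

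S100a4 (ENSMUSG00000001020, chr3:90603771-90606045, plus strand) had 25.7 CPM in high-score cells, 1.83 CPM in middle cells, 0.146 CPM in low-score cells and 346 CPM in adherent cells. A UMI of it was found in 74 high-score cells (21.6%, and 9.38% with each cell thinned to 5000 UMIs), against 69.5% of adherent cells (59.2% thinned). In high-score cells it reached 7.44% of the adherent level, while S100a6 reached 60.1%, Cryab 67.4% and Lgals1 77.5%. S100a4 gave 0.175% of the score's UMIs, so it hardly took part in choosing the cells, and it was the score gene furthest from its adherent level.

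The 4 genes did not mark the same cells. By Lgals1 alone, 262 high-score cells (76.6%) were in the top 8% of kept neurosphere cells, by S100a6 alone 229 (67.0%), by Cryab alone 155 (45.3%) and by S100a4 alone 90 (26.3%). Only 26 high-score cells were in the top 8% for all 4 genes, 95 for 3 genes, 126 for 2 and 95 for 1. A UMI of each of the 4 genes was found in 68 high-score cells (19.9%), and a UMI of S100a6, Lgals1 and Cryab in 321 (93.9%).

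Over the 4276 kept neurosphere cells, which share depth and library, the level of S100a6 had a Pearson r of 0.476 with Lgals1, 0.423 with Cryab and 0.309 with S100a4. Over the 342 high-score cells, S100a6 had an r of -0.17 with Lgals1, 0.154 with Cryab and 0.330 with S100a4, and Lgals1 had an r of -0.20 with Cryab. Choosing cells on a sum can lower the r among its parts, and how far it did so here was not tested.

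By the gene with the most UMIs of the score, 258 high-score cells (75.4%) were led by Lgals1, 71 (20.8%) by S100a6, 13 (3.80%) by Cryab and 0 by S100a4. The S100a6-led cells had a median of 13410 UMIs and the Lgals1-led cells 18303. Lgals3, which encodes galectin-3, had 2612 CPM in S100a6-led cells and 1546 CPM in Lgals1-led cells. Cstb, which encodes the cysteine protease inhibitor cystatin B, had 15284 CPM in S100a6-led cells and 9070 CPM in Lgals1-led cells. Chit1, which encodes the chitin-cleaving enzyme chitotriosidase, had 388 CPM in S100a6-led cells, where 41 of the 71 cells held a UMI, and 30.5 CPM in Lgals1-led cells, where 49 of the 258 did. S100a6-led cells thus held most of the Chit1 signal of the high-score cells.

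Krt8, which encodes the simple epithelial keratin 8, had 9009 CPM in S100a6-led and 5744 CPM in Lgals1-led cells. In the 13 Cryab-led cells it had 1105 CPM, with a UMI in 7 of the 13 and 40.2% of its UMIs in 1 cell. Their Hmox1 level of 4840 CPM came almost wholly from 1 cell, which held 97.5% of those UMIs, so with 13 cells no gene level there can be read as shared by them.

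The label says that these cells kept adherent markers, and the genes outside the score were used to check it. Adherent-high genes were taken from adherent cells against middle cells, a comparison without the high-score or the low-score cells: of 6512 genes with a mean of at least 20 CPM, 143 (2.2%) were at least 4-fold higher in adherent cells and 238 (3.65%) at least 4-fold lower, which are called neurosphere-high genes. The score genes were left out of both lists. The sizes of the lists depended on the scaling. Under TMM scaling 195 genes were adherent-high and 182 neurosphere-high, so the balance between the lists turned around. When each total also counted ribosomal and mitochondrial UMIs, the lists held 103 and 261 genes. Of the 143 adherent-high genes, 84 (58.7%) were at least 2-fold higher in high-score than in low-score cells, 57 were within 2-fold and 2 were at least 2-fold lower. Of all 8804 genes with a mean of at least 10 CPM in high-score and low-score cells, 3.54% were that much higher and 6.38% lower. The filter of 10 CPM was passed by 102 of the 143, of which 62 were higher. The median log2 ratio of the list was 1.16, with quartiles of 0.49 and 1.96, beside a median of -0.18 over the 8804 genes. The 2 lower genes, named after their values were seen, were Adgrb3, an adhesion receptor gene, at a log2 ratio of -3.66 and Slc1a3, a glutamate transporter gene of astrocytes, at -1.83.

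Of the 238 neurosphere-high genes, 115 (48.3%) were at least 2-fold lower in high-score than in low-score cells, 113 were within 2-fold and 10 (4.20%) were at least 2-fold higher, a share near that of all genes. The median log2 ratio was -0.93. Cstb at 2.23, Krt8 at 1.80 and Csn3, a casein gene, at 3.81 were among the 10.

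Measured against the adherent level itself, the difference was partial. High-score cells had at least 50% of the adherent CPM for 13 of the 143 adherent-high genes, and their median level was 21.1% of the adherent level, against 14.3% in middle cells and 10.3% in low-score cells. Ahnak2, at 156% of the adherent level, and Spp1, at 108%, were the 2 genes at or above it, and 38.9% of the Spp1 UMIs came from 1 cell. For all 238 neurosphere-high genes, the high-score cells were still at or above the adherent level. So were middle cells, by the definition of the list, and low-score cells for 237 of the genes. Within 4-fold of that level lay 68 of the genes in high-score cells and 11 in low-score cells. In middle cells there were 0, again by the definition. The definition also keeps middle cells at least 4-fold below the adherent level for every adherent-high gene, which bounds their median of 14.3%. All percentages of the adherent level rest on how the libraries were scaled. TMM shifted the log2 ratio of adherent over middle cells by 0.29. The median ribosomal share, removed before scaling, was 29.6% in adherent and 18.1% in high-score cells. How far another scaling would move the percentages was not tested.

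The median share of a cell's UMIs on adherent-high genes was 0.965% in high-score cells, 0.447% in middle cells, 0.350% in low-score cells and 3.98% in adherent cells. On neurosphere-high genes the median share was 5.37% in high-score cells, 6.02% in middle cells, 7.31% in low-score cells and 0.618% in adherent cells. High-score cells lay between low-score and adherent cells on both measures, and much nearer to the low-score cells.

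**Figure D2:**
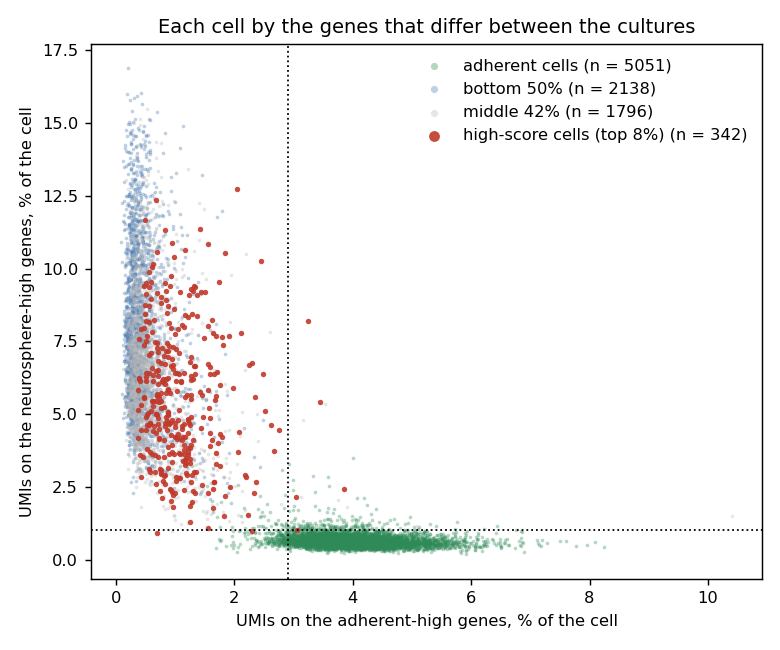
Percent of UMIs per cell on adherent-high genes (x axis) and on neurosphere-high genes (y axis), with a point per cell and dotted lines at the limits of the adherent range, 2.91% and 1.02%. High-score cells have medians of 0.965% and 5.37%, adherent cells 3.98% and 0.618%.

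An adherent range was set at the 5th percentile of adherent cells for adherent-high genes, 2.91%, and their 95th percentile for neurosphere-high genes, 1.02%. It held 4594 of the 5051 adherent cells and 0 of the 342 high-score cells, a count with an exact upper limit of 1.07%. For adherent-high genes alone 5 high-score cells reached the range, and for neurosphere-high genes alone 2 did. The cell nearest to it had 3.07% of its UMIs on adherent-high genes and 1.03% on neurosphere-high genes, just above the limit, from 14289 UMIs. This cell held 2 UMIs of Krt8 and all 17 UMIs of Ly6a, a gene for a membrane protein, that the high-score cells had. The other 4 cells in the range for adherent-high genes had 2.17%, 2.43%, 5.42% and 8.20% on neurosphere-high genes. The label speaks of adherent markers, and the high-score cells carried them together with neurosphere-high genes above their adherent level. With 1 time point, adherent genes that were kept and adherent genes that rose anew cannot be told apart, so the cells are called by their score.

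Single markers gave the same picture. Krt8 (ENSMUSG00000049382, chr15:101996698-102004482, minus strand), which is near absent from adherent cells, was found in 316 of the 342 high-score cells (92.4%, interval 89.1% to 94.97%). With each cell thinned to 5000 UMIs, the share was 86.2% in high-score cells, 75.6% in middle cells, 53.3% in low-score cells and 1.41% in adherent cells, the type that should lack it. Unthinned, 2.69% of adherent cells held a UMI of it, at a median of 8260 UMIs per cell against 17410.5 in high-score cells. Free RNA of the neurosphere library does not reach the adherent cells, and its part in the neurosphere shares was not tested. Its level was 6117 CPM in high-score cells, 3488 CPM in middle cells, 1755 CPM in low-score cells and 3.93 CPM in adherent cells. Krt18, the gene of the partner keratin that pairs with keratin 8 in filaments, had 76.6 CPM in high-score cells, 10.00 CPM in low-score cells and 0.108 CPM in adherent cells. Krt18 was found in 51 high-score cells (14.9%, and 7.92% thinned), 9.08% of middle cells (5.13% thinned) and 2.29% of low-score cells (1.54% thinned). Of its UMIs in high-score cells 76.1% came from 10 cells and 19.3% from 1, so its pooled level rests on few cells. The high-score cells thus had the highest level of Krt8, which adherent cells nearly lack.

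Of 9 genes named for adherent cells in earlier results of these data, Mt3 alone passed the filter of a mean of 10 CPM over high-score and low-score cells. Mt3, which encodes a metal-binding metallothionein, was found in 29.2% of high-score cells (16.4% thinned), 1.82% of low-score cells (0.769% thinned) and 40.9% of adherent cells (31.7% thinned). Ly6a was found in 1 high-score cell (0.292%, and 0.293% thinned), 1 low-score cell and 19.1% of adherent cells (14.02% thinned). Klk8, which encodes a serine protease, was found in 3.80% of high-score cells (2.64% thinned), 0.234% of low-score cells (0.0481% thinned) and 34.8% of adherent cells (24.4% thinned). Plscr2, a phospholipid scramblase gene, was found in 6.14% of high-score cells (2.35% thinned), 1.64% of low-score cells (0.962% thinned) and 47.9% of adherent cells (36.2% thinned). Vgf, the gene of a secreted neuropeptide precursor, was found in 8.77% of high-score cells (3.23% thinned), 0.421% of low-score cells (0.144% thinned) and 24.4% of adherent cells (18.1% thinned). The other 4 were matrix metalloproteinase genes: Mmp2 had a log2 ratio of 0.71 (0.30 to 1.12), Mmp28 1.32 (0.29 to 2.30), Mmp11 -0.59 (-1.88 to 0.50) and Mmp19 -0.11 (-3.36 to 2.16). Plscr2, at 1.35 (0.70 to 1.99), was close to Mmp28. The 9 genes thus differed from one another, and of the 5 with shares given Mt3 was the nearest to its adherent share. Of 11 genes named for neurosphere cells in the same way, 2 were at least 2-fold higher in high-score than in low-score cells, Krt8 and Ccl2, and 6 were at least 2-fold lower, with a median log2 ratio of -1.06.

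Across all genes, 8804 had a mean of at least 10 CPM in high-score and low-score cells, the score genes left out. Of these, 312 (3.54%) were at least 2-fold higher in high-score cells and 562 (6.38%) at least 2-fold lower. The median log2 ratio of -0.18 moved by 0.12 under TMM scaling to -0.06, so small ratios should be read against that shift. Without the single high-score cell with the most UMIs of the gene, 29 of the 312 genes fell under 2-fold, and 8 of the 312 had over 30% of their UMIs in 1 cell. With both groups limited to cells between the quartiles of the high-score cells' UMIs, 170 high-score cells with a median of 17410.5 UMIs and 690 low-score cells with a median of 16323.5 UMIs were left, and 355 genes were higher and 542 lower. This limit was chosen after seeing the data. With it, the adherent-high genes had a median log2 ratio of 1.33 and the neurosphere-high genes -0.78. With cells thinned to 5000 UMIs before scoring, 313 genes were higher and 664 lower. The score itself mattered more. With a score without Lgals1, 334 genes were higher and 246 lower, so the balance between higher and lower genes turned around and depends on Lgals1 being in the score.

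Among the 12 genes highest in high-score over low-score cells, ranked with 5 CPM added, Lgals3 (ENSMUSG00000050335, chr14:47367751-47386160) came first, at 1739.5 CPM against 106 CPM, a log2 ratio of 4.03 (3.97 to 4.09). Galectin-3 is a second sugar-binding lectin beside galectin-1. Adherent cells had 4782 CPM of Lgals3, and 98.0% of high-score cells held a UMI (91.5% thinned), against 55.4% of low-score cells (34.1% thinned). S100a10 (ENSMUSG00000041959, chr3:93555080-93564643), whose protein pairs with annexin A2 at the plasma membrane, had 1185 CPM in high-score cells and 113 CPM in low-score cells, a log2 ratio of 3.39 (3.33 to 3.45). Adherent cells had 1677 CPM of S100a10. Both genes were found in nearly all high-score cells, and whether they rose with the score within the group was not tested.

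Plaur, the gene of the urokinase receptor that brings a matrix-degrading protease to the cell surface, had 75.4 CPM in high-score cells, 3.19 CPM in low-score cells and 90.1 CPM in adherent cells, a log2 ratio of 4.57 (4.23 to 4.91). Ahnak2, a very large scaffold protein gene, had 54.2 CPM against 0.732 CPM and 34.7 CPM in adherent cells, a log2 ratio of 6.21 (5.56 to 6.94). Reln, the gene of the secreted matrix protein reelin, had 119 CPM against 6.12 CPM and 111 CPM in adherent cells, a log2 ratio of 4.28 (4.04 to 4.53). For Mt3 the values were 76.2 CPM against 1.501 CPM and 164 CPM in adherent cells, a log2 ratio of 5.67 (5.20 to 6.16). These 4 genes were near or above 50% of the adherent level. Against all other kept cells, the log2 ratio was 2.99 for Plaur, 3.80 for Ahnak2, 2.55 for Reln and 4.41 for Mt3.

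Other genes among the 12 were low in adherent cells too. Chit1 had 91.3 CPM in high-score cells, 1.32 CPM in low-score cells and 3.52 CPM in adherent cells, a log2 ratio of 6.11 (5.63 to 6.64). Stmn4, which encodes a tubulin-binding protein of the stathmin family, had 47.8 CPM against 0.623 CPM and 4.47 CPM in adherent cells, a log2 ratio of 6.26 (5.56 to 7.06). Csn3 had 103 CPM against 7.32 CPM and 7.39 CPM in adherent cells, a log2 ratio of 3.81 (3.58 to 4.05). Middle cells had 45.8 CPM of Csn3. Against all other kept cells, the log2 ratio was 4.22 for Chit1, 3.96 for Stmn4 and 1.89 for Csn3. A UMI was found in 27.2% of high-score cells for Chit1 (20.8% thinned), 24.9% for Stmn4 (15.2% thinned) and 46.5% for Csn3 (28.2% thinned). The 10 cells with the most Chit1 held 50.9% of its UMIs. Chit1, Stmn4 and Csn3 were thus higher in the pooled high-score cells, in a part of these cells, without being adherent genes in these data.

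Ccl2, Spp1 and Nppb rested on few cells. Ccl2, which encodes a chemokine that draws monocytes, had 63.4 CPM in high-score and 0.952 CPM in low-score cells, but 18 high-score cells held it and the top 10 held 95.2% of its UMIs. Middle cells had 36.6 CPM of it, and its log2 ratio of 6.06 was 1.67 against all other kept cells, 1.66 with the UMIs split at random and 2.89 with cells thinned before scoring. Spp1, the gene of the secreted protein osteopontin, had 61.6 CPM against 1.61 CPM, a log2 ratio of 5.26 that was 4.55 without the cell with the most UMIs. Nppb, which encodes a natriuretic peptide, had 38.4 CPM against 1 UMI in the low-score cells, a log2 ratio of 10.03 (7.54 to 15.34), and 73.4% of its UMIs came from 1 of the 6 high-score cells that held it. Their pooled levels do not describe a typical high-score cell.

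Among the 12 genes lowest in high-score cells were markers of the oligodendrocyte lineage and neuronal adhesion genes. Lhfpl3 (ENSMUSG00000106379, chr5:22746059-23275597), a gene of oligodendrocyte progenitor cells, had 14.02 CPM in high-score cells, 228 CPM in low-score cells and 34.5 CPM in adherent cells, a log2 ratio of -4.02 (-4.34 to -3.73). Mbp, the gene of a myelin protein, had 18.1 CPM against 193 CPM, a log2 ratio of -3.41, and adherent cells had 255 CPM of it, further from the high-score than from the low-score level. With a score without Lgals1, the log2 ratio of Mbp was -0.77, under 2-fold, and with each score gene divided by its mean share it was -1.64. Lhfpl3 was at -2.25 with a score without Lgals1. The size of these differences thus depends on how the score is built.

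Lsamp, which encodes a membrane-anchored neuronal adhesion protein, had 15.7 CPM in high-score cells, 231 CPM in low-score cells and 5.03 CPM in adherent cells, a log2 ratio of -3.88 (-4.17 to -3.60). Cadm2, a synaptic adhesion gene, had 73.9 CPM against 648 CPM and 11.4 CPM in adherent cells. Cntn1, which encodes contactin-1 on axons and oligodendrocyte progenitors, had 27.4 CPM against 203 CPM and 19.4 CPM in adherent cells. Map2, the gene of a microtubule protein of dendrites, had 38.4 CPM against 294 CPM and 25.2 CPM in adherent cells. Omg, the gene of oligodendrocyte myelin glycoprotein, had 3.50 CPM against 47.8 CPM and 0 UMIs in adherent cells. Also among the 12 were Ppp2r2b at a log2 ratio of -3.80, Pdzd2 at -3.23, Ppp1r16b at -2.93 and the cartilage collagen gene Col2a1 at -3.12. Ppp2r2b was at -1.79 with a score without Lgals1.

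**Figure D3:**
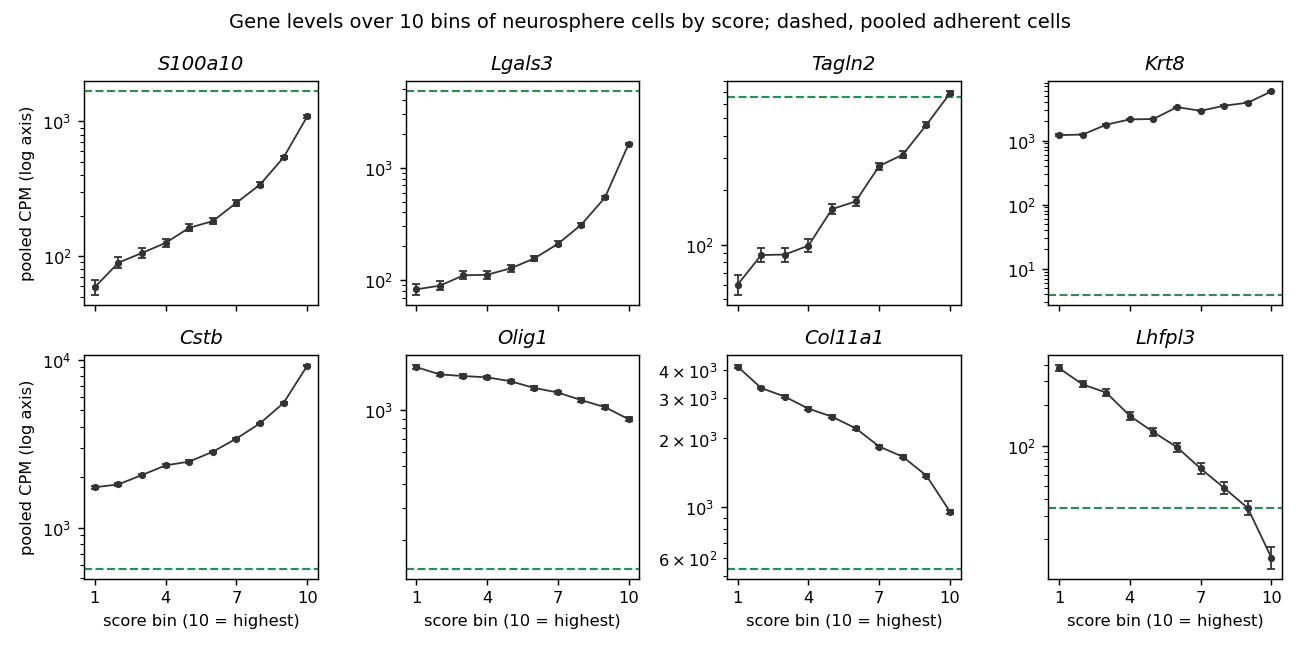
Pooled CPM (y axis, log scale, with exact 95% Poisson intervals) of 8 genes in 10 bins of kept neurosphere cells ordered by score (x axis), with the adherent level dashed. S100a10 goes from 58.9 to 1089 CPM between the lowest and the highest bin and Lhfpl3 from 376 to 14.6 CPM.

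The differences were graded. In 10 equal bins of kept neurosphere cells ordered by score, Lgals3 went from 82.8 CPM in the lowest bin to 1620 CPM in the highest and was 543 CPM in bin 9. Krt8 went from 1214 CPM to 5830.2 CPM, and Cstb from 1738 CPM to 9208 CPM. Lhfpl3 fell in every bin, from 376 CPM to 14.6 CPM, and Col11a1, a gene of a cartilage collagen, from 4123 CPM to 956 CPM. The bins' median depth went from 8606.5 to 17494 UMIs, and its part in these trends was not tested bin by bin. In the 43 cells of the top 1%, Lgals3 had 3169 CPM.

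Of 8771 genes compared with the score over the 4276 kept neurosphere cells, 86 had an r of at least 0.3 and 69 an r of at most -0.3. S100a10 had the highest r, 0.671, followed by Emp3, a membrane protein gene linked to mesenchymal glioma, at 0.611 and Cst6, a second cystatin gene, at 0.563. Lgals3 had an r of 0.563, the synaptotagmin gene Syt4 0.539, the actin-binding protein gene Tagln2 0.530, Cstb 0.478 and the peptide-processing enzyme gene Cpe 0.470. Over the 5051 adherent cells, S100a10 had an r of 0.440 with the same score, Emp3 0.327 and Lgals3 0.457, while Syt4 had -0.02 and Cpe -0.01. At the other end were Col11a1 at -0.50, Col11a2 at -0.47, Map2 at -0.45 and the actin regulator gene Enah at -0.45. The points share a library and depth, which itself went with the score, and some of the 8 highest genes followed the score in neurosphere cells alone.

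The high-score cells also lay near one another when the score genes were left out. Of the 30 nearest neighbours of a cell, in 18 principal components of 2000 variable genes, a mean of 46.4% were high-score cells for high-score cells, 7.8% for middle cells and 0.6% for low-score cells. At least 50% of the neighbours were high-score cells for 166 of the 342, and 8 of the 342 had none. On average, fewer than 50% of the neighbours of a high-score cell were themselves high-score cells, so the other genes set them apart only in part.

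Among relatives of the score genes, 5 of the 14 other S100 genes passed the filter, of which 2 were at least 2-fold higher and 1 lower, with a median log2 ratio of 0.76. Counts for the lists that follow likewise cover only the genes past the filter, and the all-gene shares beside them are the 3.54% higher and 6.38% lower given above. S100a10 at 3.39 and S100a11 at 1.52 were higher, and S100b, which marks glial cells, was at -1.92. S100a6 and S100a4 lie in the S100 cluster of chromosome 3, with S100a13 at chr3:90514435-90524581 and S100a1 at chr3:90511034-90514392 close by and at log2 ratios of 0.76 and -0.03. S100a3, beside S100a4 at chr3:90560578-90602702 and named after its values were seen, had 12.8 CPM in high-score and 0.586 CPM in low-score cells, a log2 ratio of 4.45 (3.67 to 5.32) with a mean under the filter of 10 CPM. Some neighbours in the cluster thus had large differences and others did not. Of the other galectins, 2 of 4 were higher, Lgals3 and Lgals9 at 1.07, with a median of 0.89. Of 6 annexin genes, 2 were higher, Anxa7 at 1.98 and Anxa6 at 1.00, which was 0.99 without 1 cell, and the median was 0.88.

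Cryab shares its genomic region with Hspb2, another small heat shock gene (chr9:50751078-50752354, minus strand), whose annotation overlaps Cryab by 1030 bases. Hspb2 had 33.2 CPM in high-score cells, 9.23 CPM in low-score cells and 115 CPM in adherent cells, a log2 ratio of 1.85 (1.58 to 2.12). It was the only one of 15 heat shock and chaperone genes past 2-fold, and the median of the 15 was 0.34. How reads in the overlap were assigned is not given in the sources used here. A broad rise of chaperone genes did not accompany Cryab.

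Of 23 actin cytoskeleton genes, 4 were at least 2-fold higher and 0 lower, with a median of 0.49: Tagln2 at 2.78 (708 CPM against 103 CPM), the tropomyosin genes Tpm2 at 2.22 and Tpm1 at 1.73, and cytoplasmic gamma-actin, Actg1, at 1.28. Of 4 intermediate filament genes, Krt18 at 2.94 and Vim at 1.22 were higher, with a median of 0.99. Krt8 at 1.80 is kept in the list of genes named earlier, and with it 3 of 5 would be higher and the median would be that of Vim, 1.22. Vim, the gene of vimentin, had 3061 CPM in high-score cells, 1312 CPM in low-score cells and 5583 CPM in adherent cells. Keratin and vimentin genes were thus high in the same group of cells.

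Genes of attachment and matrix gave a mixed picture. Of 7 targets of YAP and TEAD, factors that respond to cell spreading, Axl at 2.80 was higher and Amotl2 at -1.16 lower, with a median of -0.47. Of 9 genes of matrix and its inhibitors, Spp1, Timp1 at 1.87 and Timp2 at 1.11 were higher, and the proteoglycan gene Dcn at -2.96 was lower, with a median of 0.36. Of 6 integrin subunits, Itga4 at 1.14 was higher and Itgb8 at -2.04 lower, with a median of -0.29. Of 8 mesenchymal transcription factor genes, Cebpd at 1.03 was higher, though 0.81 without 1 cell, and Prrx1 at -1.63 and Twist1 at -1.03 were lower, with a median of -0.37. Of 8 cadherin and catenin genes, 0 were higher and Cdh10 at -1.76 was lower, with a median of -0.64. The high-score cells did not have a general rise of these lists.

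Among stress and metabolism lists, 2 of 16 integrated stress response genes were higher, Atf3 at 1.73 and Nupr1 at 1.51, with a median of 0.46. Of 12 hypoxia genes 3 were higher, the glucose transporter gene Slc2a1 at 2.28, Ero1l at 1.13 and Ldha at 1.10, with a median of 0.07 that was -0.06 with mitochondrial and ribosomal genes in the total. Of 12 glycolysis genes, Pfkp at 1.70 and Gapdh at 1.00, which was 0.99 without 1 cell, were higher and Aldoc at -2.27 was lower, with a median of 0.24. Of 13 oxidative stress and ferritin genes, Srxn1 at 2.01 and Hmox1 at 2.41 were higher, but 68.0% of the Hmox1 UMIs came from 1 cell, and without it the log2 ratio was 0.77. The median of that list was 0.40. Of the metallothionein genes Mt2 was higher at 1.15 and Mt1 was at 0.75, for a median of 0.95. Mt3 at 5.67 is kept in the list of genes named earlier, and with it the median would be that of Mt2, 1.15. Of 13 p53 targets and cell cycle inhibitors, Gadd45a at 1.24, Phlda3 at 1.12 and Bbc3 at 1.12 were higher and Sesn1 at -1.22 lower, with a median of 0.03. Single genes of these lists differed while the list medians were within 2-fold, apart from the metallothioneins once Mt3 is counted.

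Of 26 G1/S genes 0 were higher and E2f8 at -1.44 was lower, with a median of -0.22. Of 28 G2/M genes 0 were higher and 3 lower, Top2a at -1.29, Mki67 at -1.27 and Kif11 at -1.04, with a median of -0.44. Of all genes 6.38% were lower, with a median of -0.18, so without a limit on UMIs few cell cycle genes were lower beyond the share of all genes. This does not hold for G2/M genes when both groups were limited to the same range of UMIs. Their median was then -1.03, past 2-fold lower, beside -0.16 for all genes there, and it was -0.38 with cells thinned before scoring. The other 25 of the 28 genes were within 2-fold without that limit.

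Signalling lists varied as well. Of 16 immediate early genes, which answer stimuli within minutes and also handling of cells, 4 were higher, Klf6 at 1.60, Klf4 at 1.45, Ier3 at 1.45 and Junb at 1.16, and Fosb and Egr1 at -1.13 each were lower, with a median of 0.33. Of 9 feedback targets of ERK, the kinase downstream of EGF and FGF receptors, 0 were higher and 4 lower, Etv1 at -1.63, Etv5 at -1.55, Spry1 at -1.29 and Spred1 at -1.25, with a median of -0.12 that was near 0 under TMM scaling. Of 13 interferon response genes, Bst2 at 1.16 and Cxcl10 at 1.33 were higher, but 76.7% of the Cxcl10 UMIs came from 1 cell and its log2 ratio was -0.77 without it. The interferon median was 0.57. Of 15 lysosome genes Ctsb at 1.15 was higher, with a median of 0.31. Of 12 translation elongation genes, with a median of 0.34, and 16 cholesterol synthesis genes, with a median of -0.15, 0 passed 2-fold either way.

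Lineage lists differed from one another. Of 11 oligodendrocyte lineage genes 0 were higher and 7 lower, with a median of -1.38 that was -0.75 with a score without Lgals1. The summed level of all 16 genes of the list, past the filter or not, was 1929 CPM in high-score cells and 2958 CPM in middle cells. It was 4524 CPM in low-score cells and 871 CPM in adherent cells. Olig1, which encodes a transcription factor of that lineage, still had 889 CPM in high-score cells against 1534 CPM in low-score and 141 CPM in adherent cells. A UMI of Olig1 was found in 96.8% of high-score cells (93.0% thinned) and 58.3% of adherent cells (44.7% thinned). Mbp and Lhfpl3 were thus lower in high-score cells, while Olig1 was nearer to its low-score than to its adherent level. Opalin, a gene of an oligodendrocyte membrane protein that is not in the list and is named after its values were seen, went the other way, with 21.3 CPM in high-score cells, 3.77 CPM in middle cells and 0.586 CPM in low-score cells. Its log2 ratio was 5.19 (4.44 to 6.03), with a UMI in 8.48% of high-score cells (4.99% thinned) against 0.421% of low-score cells (0.288% thinned), 80.0% of its UMIs in 10 cells and 25.7% in 1 cell, and it was 4.76 without that cell.

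Of 9 cartilage matrix genes, which neurosphere cells express at high level, all 9 were at least 2-fold lower in high-score cells, with a median of -1.70. The summed level of all 14 genes of the list, past the filter or not, was 2136 CPM in high-score cells and 3957 CPM in middle cells. It was 6409.6 CPM in low-score cells and 889 CPM in adherent cells. Of 7 long neural genes 6 were lower, with a median of -1.82 that was -1.26 with both groups limited to 1 range of UMIs. The nuclear RNA Malat1 fell over the score bins as well, from 6904 CPM in the lowest to 1797 CPM in the highest of 10, with 3461 CPM in the top 1% of cells. Low-score cells had fewer UMIs and a higher mitochondrial share, and the part of RNA quality in these differences was not tested. Of 5 Notch pathway genes 3 were lower, led by the ligand gene Dll1 at -2.42, with a median of -1.22. Of 4 Wnt pathway genes Rnf43 at -2.63 and Fzd2 at -1.75 were lower and Wnt7b at 5.42 (4.60 to 6.37) was higher, with 20.4 CPM in high-score and 0.476 CPM in low-score cells, and the median was -1.23. Wnt7b was the only gene of these 4 lists that was past 2-fold in the other direction.

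Of 9 neural stem genes, 5 were lower, led by Fabp7 at -2.46 and Hes5 at -1.93, and the hyaluronan receptor gene Cd44 was higher at 1.66, with a median of -1.17 that was -0.33 with a score without Lgals1. Cd44 had 101 CPM in high-score cells, 32.1 CPM in low-score cells and 106 CPM in adherent cells. Of 3 neuronal genes Map2 was lower and Tubb3 at 1.51 higher, with a median of -0.51, and of 3 astrocyte genes Slc1a3 was lower, with a median of -0.31. Of 4 nuclear long noncoding RNAs, Malat1 at -1.12 and Kcnq1ot1 at -1.18 were lower, with a median of -0.78. The median was -0.60 with both groups limited to 1 range of UMIs and -0.71 with cells thinned before scoring, and -0.24 with a score without Lgals1.

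**Figure D4:**
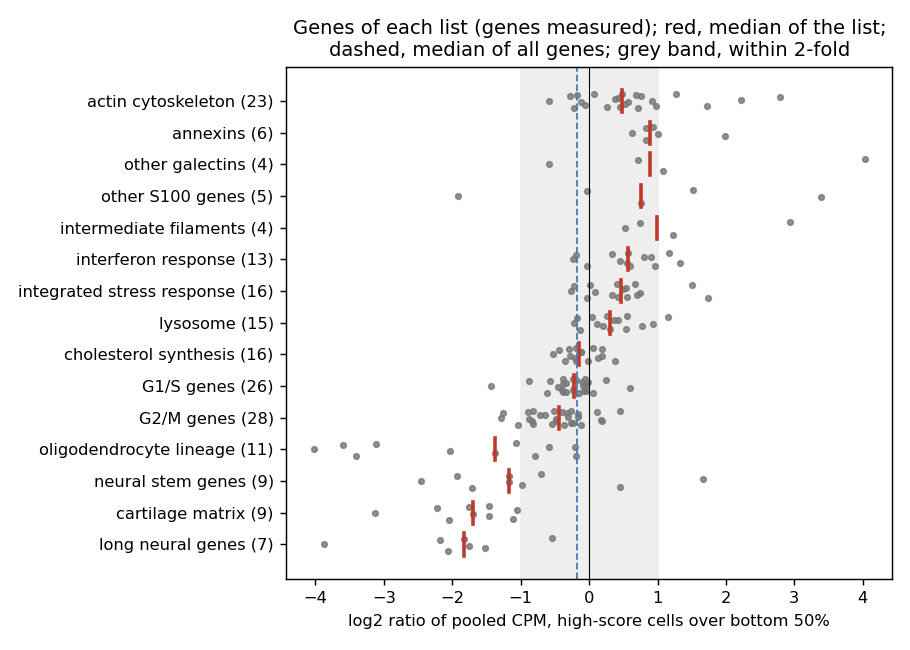
Log2 ratio of CPM, high-score over low-score cells, for the genes (points) and median (red bar) of 15 of the lists, with the range within 2-fold in grey. The cartilage matrix median is -1.70 and the oligodendrocyte lineage median -1.38, beside -0.18 for all 8804 genes.

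Markers of other cell types were scarce. Of 8 immune cell markers Cd68 alone passed the filter, and it was the most abundant of them, with 22.2 CPM in high-score cells, 3.31 CPM in middle cells, 0.989 CPM in low-score cells and 10.5 CPM in adherent cells. The summed level of the 8 was 26.1 CPM in high-score cells, 6.31 CPM in middle cells, 3.33 CPM in low-score cells and 15.7 CPM in adherent cells. A UMI of Cd68, a lysosomal glycoprotein gene, was found in 28.7% of high-score cells (13.2% thinned) and 7.60% of adherent cells (4.57% thinned). The defining markers Ptprc, Aif1 and Tyrobp had 0 UMIs in the high-score cells, with an exact upper limit of 0.562 CPM for Ptprc. Csf1r had 6 UMIs in 5 cells. Thus no high-score cell held UMIs of Ptprc, the marker that white blood cells share.

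Of the endothelial, fibroblast and erythroid markers that are in no other list, 0 passed the filter. Dcn, also a fibroblast marker but counted with the matrix genes above, did pass it and was lower in high-score cells. The endothelial sum was 3.35 CPM in high-score cells, 2.32 CPM in middle cells, 4.25 CPM in low-score cells and 1.34 CPM in adherent cells, most of it Pecam1, and Cldn5 had 0 UMIs in high-score cells. Pdgfrb, the fibroblast marker not in another list, had 0.152 CPM in high-score cells, 0.0644 CPM in middle cells, 0.0366 CPM in low-score cells and 0.691 CPM in adherent cells. The erythroid sum was 0.609 CPM in high-score cells, 0.129 CPM in middle cells, 0 in low-score cells and 3.95 CPM in adherent cells, all from Hba-a1 in high-score cells, with Hba-a2, Hbb-bs and Hbb-bt at 0 UMIs.

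Promoters were searched for short motifs in the 250 bases before each start as RefSeq gives it for GRCm38.p6, on both strands. The AP-1 letters TGANTCA, bound by Fos and Jun proteins, were in 1856 of 27025 promoters (6.87%), in 268 of 7076 promoters of genes compared (3.79%), in 26 of 235 of genes at least 2-fold higher in high-score cells (11.1%) and in 10 of 428 of genes at least 2-fold lower (2.34%). For the heat shock element core GAANNTTC the shares were 6.78%, 4.76%, 3.83% and 3.50%, for the TEAD letters CATTCC 12.6%, 9.89%, 13.6% and 11.7%, and for the antioxidant response element TGACNNNGC 10.1%, 12.3%, 16.6% and 14.7%. A match is a description of letters and not a bound site.

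Of the score genes, S100a6 and S100a4 are in the promoter table, and Lgals1 and Cryab are not. The windows of these neighbouring S100 genes are shown to set their letters side by side, and that of Plaur because it is a high-score gene with an AP-1 match. The S100a6 window is chr3:90612644-90612893 on the plus strand, with a heat shock element core in capitals, the S100a4 window is chr3:90603520-90603769 on the plus strand with no match, and the Plaur window is chr7:24462233-24462482 on the plus strand with the AP-1 letters in capitals.
S100a6: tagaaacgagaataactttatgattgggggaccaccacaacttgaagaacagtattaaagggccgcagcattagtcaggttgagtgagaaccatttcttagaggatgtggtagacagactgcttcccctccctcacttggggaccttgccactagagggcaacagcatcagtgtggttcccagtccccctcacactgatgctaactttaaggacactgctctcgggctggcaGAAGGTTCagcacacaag
S100a4: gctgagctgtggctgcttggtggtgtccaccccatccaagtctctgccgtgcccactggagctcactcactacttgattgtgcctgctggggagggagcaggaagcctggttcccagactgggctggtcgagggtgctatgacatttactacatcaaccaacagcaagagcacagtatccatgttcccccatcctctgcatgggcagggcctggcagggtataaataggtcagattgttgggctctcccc
Plaur: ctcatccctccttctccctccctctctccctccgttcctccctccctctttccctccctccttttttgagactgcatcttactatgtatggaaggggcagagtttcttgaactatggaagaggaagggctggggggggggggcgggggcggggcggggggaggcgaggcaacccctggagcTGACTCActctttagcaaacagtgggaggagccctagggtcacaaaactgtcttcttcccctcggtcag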

How the data were processed

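The authors deposited raw UMI counts per gene and called cell for 1 adherent and 1 neurosphere library, made with Cell Ranger 7.0.1 and build mm10 per the submitters' processing notes. The annotation, the intron setting and the strand setting are not given in the sources used here. The members and lists were chosen with earlier results of these data known. The 13 mitochondrial and 101 ribosomal genes were removed, and cells were kept with at least 1000 UMIs and 2250 genes (adherent 1250). The 4 score genes' UMIs were divided by all remaining UMIs. No doublet caller was run, and an alternative left out cells over the 95th percentile of UMIs. UMIs were pooled over the cells of a group, scaled to CPM and compared as log2 ratios among genes with a mean of at least 10 CPM. Intervals were exact conditional, Poisson and Clopper-Pearson binomial. Only the conditional ones were run on simulated counts. These were drawn from the Poisson model that the intervals assume, so the run did not cover spread between cells. Shares were also taken with cells thinned to 5000 UMIs, which left out cells below that depth (1 high-score, 21 middle, 58 low-score and 587 adherent cells).

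Genes are named by a rule: the score genes, up to 6 of each list with the largest log2 ratios among those past the filter, the 12 highest and 12 lowest log2 ratios with 5 CPM added, and the 8 highest and 4 lowest correlations with the score. Genes outside the rule were chosen after their values were seen: the markers of other cell types and of earlier results that missed the filter, genes used to compare groups of high-score cells, S100a3, Opalin and Adgrb3. The symbols Aldoa and Ddit3 are shared by several gene IDs and were left out of the lists set by name. Ddit3 is still among the adherent-high genes, which were taken from the counts. Positions are from GENCODE M21, which holds 32235 of the 32285 gene IDs. Alternatives covered the cell filter, the score, the share of cells, depth, count splitting, the comparison cells, scaling, the gene filter, the fold and the list threshold. Python 3.11.15 was used with numpy 2.4.6, scipy 1.17.1, pandas 2.3.3, scikit-learn 1.9.0 and matplotlib 3.10.9, and edgeR 4.0.16 under R 4.3.3 for TMM.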

Additional observations from a re-analysis of the deposited data

How the results depend on the processing

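The 7 main results were recomputed under 22 alternatives and under 2 more chosen after seeing the data. Of 168 values, 142 stayed within 1.5 times the value reported (for shares, within its exact interval) and 26 moved further. The 142 include values that a setting could not alter, such as the pooled score under another gene filter or fold. Neither the adherent-high nor the neurosphere-high median changed sign, and the other main results, as counts and shares, had no sign to change. The pooled score of the high-score cells, 1.47% (1.46% to 1.48%), was 1.45% without cells over the 95th percentile of UMIs, 1.78% for the top 5% of cells, 1.34% for the top 10%, 1.40% with each score gene divided by its mean share, 1.40% without S100a6, 1.42% without Lgals1, 1.44% without Cryab, 1.499% with cells thinned to 5000 UMIs, 1.46% with the UMIs split at random, 1.15% with mitochondrial and ribosomal genes in the total, 1.45% under TMM and 1.499% between the quartiles of UMIs. These choices change the cells or the total, so the change follows from their construction. The 312 higher genes became 107 at a mean of 50 CPM, 2952 at 1 UMI and 631 at 1.5-fold, again by construction. The 562 lower genes became 230 at a mean of 50 CPM, 5185 at 1 UMI, 1790 at 1.5-fold, 304 against all other kept cells and 246 with a score without Lgals1, where the cause was not tested and the 334 higher genes outnumbered the lower ones, unlike under the other alternatives. The adherent-high median of 1.16 became 1.78 with lists at 8-fold, and the count of cells in the adherent range went from 0 to 1. The Krt8 share of 92.4% was 88.0% with score genes weighted by their mean, 86.8% without Lgals1, 86.3% with cells thinned before scoring, and 100% by construction when only cells with Krt8 were used. The neurosphere-high median ran from -1.23 to -0.75 over the alternatives. Of 34 list medians 7 changed sign under at least 1 alternative: mesenchymal transcription factors, matrix, integrins, hypoxia, p53 targets, ERK targets and astrocyte genes. Of 574 values of the 24 highest and lowest genes, 121 left their exact interval and 0 changed sign. With 1 library per culture, differences between libraries and between cultures cannot be told apart, and genes with few UMIs in the 342 cells can rest on single cells.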
